A study of Homo sapiens with 6 samples.

Results

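Genes of the ATF4 and unfolded protein response programmes were followed across RNA libraries of HepG2, a human hepatocellular carcinoma line, with and without the secreted TGF-beta family protein GDF11. They were found by matching 48 listed symbols to the Ensembl gene IDs of the deposited table. Of these, 47 matched 1 of its 60240 genes each, and VLDLRAS matched none and has no value here. By role they comprise ATF4 and 8 stress regulators linked to it, 11 enzymes of serine, one-carbon, proline and asparagine synthesis, 4 amino acid transporters, 5 sensors and factors of the unfolded protein response, 14 chaperones and cofactors of the endoplasmic reticulum (ER), and 4 genes of ER-associated degradation. The first 3 roles are called the ATF4 arm (24 genes) and the last 2 the ER arm (18 genes).

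Cultures received 100 ng/ml recombinant GDF11 for 24 h (3 libraries) or were labelled as control (3 libraries). All were HepG2 in high-glucose DMEM with serum, and the labels do not say what, if anything, the control cultures received in place of GDF11. The labels call the cultures biological replicates of 1 established line, so the p-values measure the spread between cultures of that line. Checked against markers, the 7 hepatocyte and HepG2 markers summed to 1096431 to 1265367 normalised reads in GDF11 libraries and 1276101 to 1831753 in control libraries, and the 5 leukocyte markers to 2778 to 3347 in GDF11 libraries and 2583 to 4153 in control libraries. Of the leukocyte markers PTPRC, CD3E and MS4A1 were at 0 in all 6, and CD68 and CD14 were present in all 6. The 4 endothelial markers summed to 68.0 to 90.6 reads in GDF11 libraries and 88.3 to 132 in control libraries. Fibroblast and stellate markers summed to 1919 to 2555 normalised reads in GDF11 libraries and 752 to 1473 in control libraries, nearly all from PDGFRB, with DCN, LUM and PDGFRA at under 5 reads, and the part of these lists in the results was not tested.

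ATF4 is a transcription factor whose protein is made when the initiation factor eIF2 is phosphorylated, under amino acid shortage, ER stress and other stresses, and it switches on genes for making and importing amino acids. Serine made by PHGDH, PSAT1 and PSPH passes its side-chain carbon to folate through SHMT1 and SHMT2, and the MTHFD enzymes carry that carbon on towards nucleotide synthesis. The unfolded protein response is the ER's own reply to misfolded protein: PERK (gene EIF2AK3) phosphorylates eIF2, IRE1 (gene ERN1) splices XBP1 mRNA, and ATF6 is cut to release a transcription factor. Hepatocytes secrete most plasma proteins, so folding in the ER is a large task in this cell type.

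Values are given as normalised reads, obtained by inverting the variance-stabilising curve of the deposited values, and differences as GDF11 minus control on the deposited variance-stabilised log2 scale, with limma's standard error. The scale compresses low values, keeping 0.696 of a true log2 change at a value of 8 and 0.978 at 12. A gene was called higher or lower when its limma p, adjusted by Benjamini-Hochberg over 18723 tested genes, was under 0.05. Less RNA per cell and fewer cells carrying it cannot be told apart in bulk RNA.

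Among the controls, replicate 3 stood apart. On the first principal component of the 1000 most variable genes it lay at -21.6, against -29.9 and -31.8 for the other controls and 27.3 to 28.6 for the GDF11 libraries. Calls of the listed genes that change without it are given with and without it. RNA integrity numbers were 9.6, 9.5 and 9.4 in the GDF11 libraries and 9.8, 9.9 and 9.6 in the control libraries, so RNA integrity moved with the groups. Estimated depth was 47945692 to 53373837 reads per library.

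Several serine and one-carbon enzymes fell with GDF11, PHGDH the most, while no ER chaperone passed the test. In the ATF4 arm 7 of 23 tested genes fell (PHGDH, MTHFD1, SHMT1, SHMT2, ALDH18A1, PSAT1 and ATF5), 2 rose (PPP1R15A and CHAC1) and 14 were not called, where 10.8% of all tested genes were lower and 11.7% higher. In the ER arm 0 of 18 fell by limma, 1 rose (EDEM1) and 17 were not called, with 4 at an unadjusted p under 0.05. Among all 18723 tested genes 6957 had an unadjusted limma p under 0.05. The median difference was -0.33 over the ATF4 arm and 0.11 over the ER arm, against 0.0056 over all tested genes. GDF11 and control values lay apart, without overlap, for 13 of the 23 ATF4 arm genes (10 of them lower, 3 higher) and 5 of the 18 ER arm genes (3 lower, 2 higher). Among all tested genes 40.5% lay apart in this way, 19.6% lower and 20.9% higher.

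Averaged over the 24 genes of the ATF4 arm, each set to its own mean, the GDF11 libraries lay at -0.18, -0.10 and -0.25 on the log2 scale and the control libraries at 0.24, 0.29 and -0.0047. The groups did not overlap, and control replicate 3 was the control nearest to the GDF11 libraries. By role, the 11 synthesis enzymes lay apart, at -0.32, -0.28 and -0.45 with GDF11 and 0.43, 0.49 and 0.13 in controls. The 9 regulators, ATF4 included, overlapped, at -0.061, 0.059 and -0.088 with GDF11 and 0.054, 0.15 and -0.11 in controls. The 4 transporters also overlapped, at -0.055, 0.045 and -0.040 with GDF11 and 0.14, 0.053 and -0.15 in controls. Over the ER arm the GDF11 libraries lay at 0.067, -0.015 and 0.095 and the control libraries at -0.056, -0.14 and 0.045, and the groups overlapped. Without control replicate 3 the ATF4 arm had 13 genes lower and 2 higher, and the ER arm 3 lower (CRELD2, SDF2L1 and SYVN1) and 4 higher (EDEM1, SEL1L, DNAJC3 and PDIA3). Calls among all tested genes also rose in both directions in that fit, above the 2185 higher and 2017 lower of the main fit. The larger count in the ER arm is therefore not by itself a result about ER genes. The totals over all tested genes in that fit, given with the other alternatives below, are the comparison for both arms. Genes were also placed on a scale with the average of the first 2 control replicates at 0 and that of GDF11 at 1, where both averages were 0.5 or more apart. There control replicate 3 had a median position of 0.49 over 12 ATF4 arm genes, 0.73 over 6 ER arm genes and 0.51 over 6490 tested genes. When RNA integrity entered as a covariate, the ATF4 arm had 3 genes lower (MTHFD1, PSAT1 and SHMT1) and 0 higher, the ER arm had 0 in either direction, and the ATF4 arm median difference and ER arm median difference were -0.069 and -0.041. Calls among all tested genes also fell in both directions with that covariate, below the 2185 higher and 2017 lower of the main fit. The smaller counts are therefore not by themselves a loss particular to these arms. RNA integrity and GDF11 cannot be told apart here for the calls that ended.

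**Figure D1:**
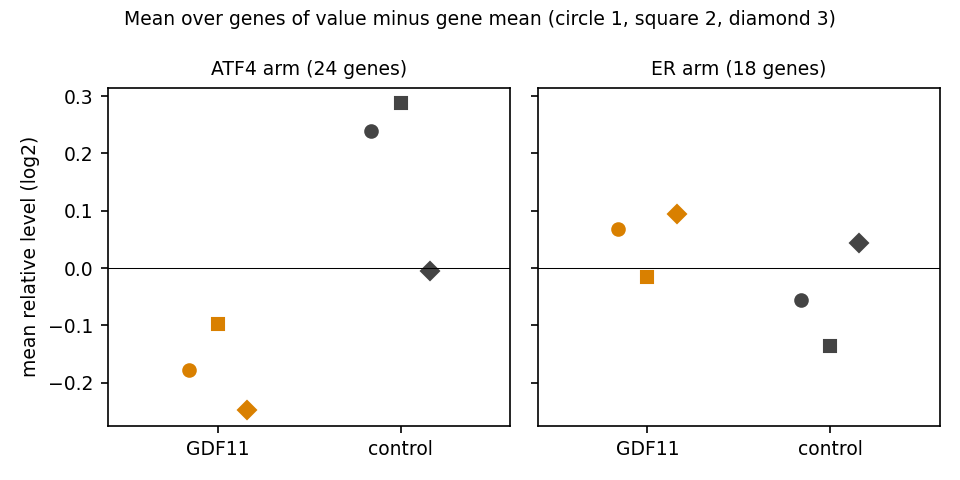
Mean relative level of the ATF4 arm (24 genes) and the ER arm (18 genes) in each library, on the log2 scale, with each gene set to its mean over the 6 libraries; circles, squares and diamonds are replicates 1, 2 and 3. The GDF11 libraries lie below every control library in the ATF4 arm and overlap with the control libraries in the ER arm.

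ATF4 itself did not pass the test. ATF4 (ENSG00000128272.14) had 14008, 15520.0 and 13060.0 normalised reads in GDF11 libraries and 19358, 22378 and 16329 in control libraries. Every GDF11 value lay below every control value, and the difference was -0.44 ± 0.17 (adjusted p = 0.0975, limma, 95% interval -0.82 to -0.051). Without control replicate 3 it was -0.55 and called (adjusted p = 0.00938). ATF4 is controlled mainly at translation, and its protein was not measured.

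Of the 8 tested regulators, ATF4 included, 1 fell, 2 rose and 5 were not called, beside 10.8% lower and 11.7% higher among all tested genes. ATF5, a related stress transcription factor, had 982, 1023 and 912 reads with GDF11 and 1944, 2091 and 1256 in controls, a fall of 0.77 ± 0.20 (adjusted p = 0.0233); the control mean was 1.81 times the GDF11 mean. The groups did not overlap, with control replicate 3 the lowest control. The ATF5 call was lost at -0.81 to -0.64 when GDF11 replicate 1, GDF11 replicate 2, GDF11 replicate 3, control replicate 1 or control replicate 2 was left out, and stood at -0.28 with the RNA integrity covariate (adjusted p = 0.468). PPP1R15A, which encodes GADD34, the stress-induced subunit that directs eIF2 dephosphorylation, rose to 1214, 1327 and 1244 reads with GDF11, against 738, 927 and 811 in controls (0.57 ± 0.15, adjusted p = 0.0236, 1.53 times the control mean). The call was lost at 0.50 to 0.59 when GDF11 replicate 1, GDF11 replicate 2, GDF11 replicate 3 or control replicate 1 was left out. CHAC1, a glutathione-degrading enzyme gene known as an ATF4 target, had 33.0, 38.5 and 26.0 reads with GDF11 and 12.6, 9.06 and 15.8 in controls. That is 2.61 times the control mean on few reads, and 0.44 ± 0.11 on the compressed scale (adjusted p = 0.0199). The call was lost at 0.39 to 0.44 when GDF11 replicate 1, GDF11 replicate 2, control replicate 1 or control replicate 2 was left out. With the RNA integrity covariate PPP1R15A stood at 0.63 (adjusted p = 0.0914) and CHAC1 at 0.37 (adjusted p = 0.246).

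The other regulators were not called in either direction, apart from FGF21, which was not tested. DDIT3, which encodes the pro-apoptotic factor CHOP, had 461, 556 and 473 reads with GDF11 and 620.4, 652 and 523 in controls (-0.23 ± 0.15, adjusted p = 0.301, 95% interval -0.58 to 0.11). TRIB3, a pseudokinase gene induced by ATF4 and CHOP, had 9732, 10818 and 8731 reads with GDF11 and 14701, 16781 and 9537 in controls (-0.45 ± 0.22, adjusted p = 0.173). For both the groups overlapped through control replicate 3 alone, and without that library TRIB3 was called lower at -0.69 (adjusted p = 0.00399). SESN2, a sestrin gene that restrains mTORC1, differed by -0.087 ± 0.17 with overlapping groups. CEBPG, a dimer partner of ATF4, had 2179, 2341 and 2695 reads with GDF11 and 2042, 1591 and 1975 in controls, without overlap but not called (0.35 ± 0.16, adjusted p = 0.144). FGF21, a hepatokine gene and ATF4 target, was near the floor of the table with 1.55, 3.14 and 2.03 reads with GDF11 and 0, 1.66 and 3.97 in controls, and was not tested.

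**Figure D2:**
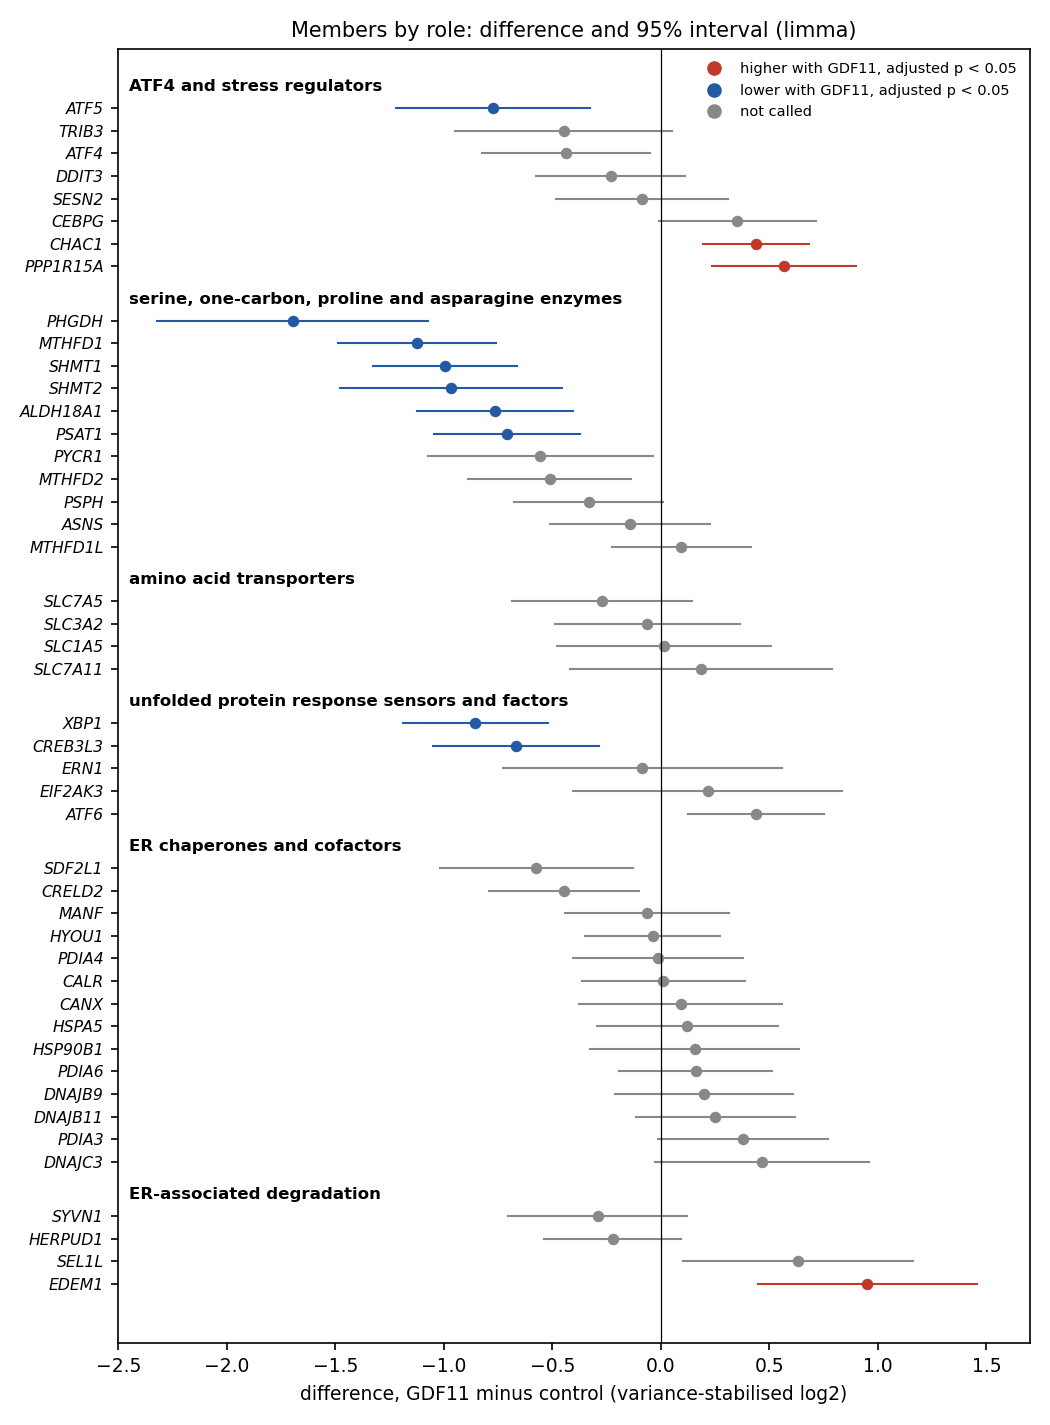
Difference of each of the 46 tested genes, GDF11 minus control on the variance-stabilised log2 scale (point), with limma's 95% interval (line), grouped by role; red and blue mark genes called higher and lower at an adjusted p under 0.05. The called decreases lie among the serine, one-carbon and proline enzymes, with ATF5, XBP1 and CREB3L3, and the increases are PPP1R15A, CHAC1 and EDEM1.

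The promoters of 42 of the 48 listed genes were in a RefSeq table (GRCh38.p14) that gives 250 bases before and 50 after each start site, and they were searched on both strands for the elements through which ATF4 and the ER stress factors are known to act. The core of the C/EBP-ATF response element, TGATGNAA, was found for 7 of 20 ATF4 arm genes, 1 of 17 ER arm genes and 0 of 5 sensors, against 4.46% of all 27305 genes in the table. Its 7 ATF4 arm genes were ASNS, CEBPG, CHAC1, FGF21, MTHFD1L, SLC1A5 and SLC3A2, of which CHAC1 rose, 5 were not called and FGF21 was not tested. Among all tested genes 11.7% were higher and 10.8% lower. The 6 ATF4 arm genes that fell and are in the table held no such core in this window, which says only that these letters are not there. The ER stress response element, CCAAT followed after 9 bases by CCACG, was found for 6 of 17 ER arm genes (CALR, CANX, CRELD2, HSP90B1, HSPA5 and PDIA6) and for XBP1 among the sensors, against 0.0916% of all genes, and its short form (ATTGG, 1 base, CCACG) for 3 more ER arm genes (HERPUD1, HYOU1 and SDF2L1), against 0.0696%. Of these 10 genes XBP1 fell and 9 were not called, where 22.4% of all tested genes were called, and so few genes cannot show a difference from that share. The unfolded protein response element TGACGTGG was found for ALDH18A1 and HYOU1 (0.927% of all genes), in HYOU1 overlapping a short-form element, and the cAMP response element TGACGTCA for PPP1R15A (2.25% of all genes). A match is a description of letters, and no binding was measured.

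Promoters of 6 genes are shown to set genes that were and were not called beside their elements: PHGDH, which fell and holds none of these letters; CHAC1, which rose, and ASNS, which was not called, both with the C/EBP-ATF core; XBP1, which fell, and HSPA5, which was not called, both with the ER stress response element; and HERPUD1, which holds a C/EBP-ATF core and a short-form element. Each is written 5′ to 3′ on the gene's strand, on GRCh38.p14, and capitals mark the element (for the ER stress response element its CCAAT and CCACG ends; in CHAC1 and HERPUD1 the core is on the other strand and reads as its reverse complement). The start site lies after base 250, and of several promoters of a gene the one with the most matches is shown.
PHGDH, chr1:119711684-119711983, plus strand: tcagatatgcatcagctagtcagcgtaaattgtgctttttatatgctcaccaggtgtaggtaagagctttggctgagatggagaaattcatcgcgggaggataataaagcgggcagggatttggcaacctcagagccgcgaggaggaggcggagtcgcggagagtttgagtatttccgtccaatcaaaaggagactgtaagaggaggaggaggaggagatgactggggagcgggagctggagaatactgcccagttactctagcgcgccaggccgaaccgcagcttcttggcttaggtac
CHAC1, chr15:40953221-40953520, plus strand: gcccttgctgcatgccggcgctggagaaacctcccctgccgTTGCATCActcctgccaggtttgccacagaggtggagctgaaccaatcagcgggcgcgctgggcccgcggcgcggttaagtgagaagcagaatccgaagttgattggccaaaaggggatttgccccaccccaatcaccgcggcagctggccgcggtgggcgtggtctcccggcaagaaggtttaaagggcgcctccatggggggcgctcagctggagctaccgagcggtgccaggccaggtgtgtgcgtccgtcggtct
ASNS, chr7:97872359-97872658, minus strand: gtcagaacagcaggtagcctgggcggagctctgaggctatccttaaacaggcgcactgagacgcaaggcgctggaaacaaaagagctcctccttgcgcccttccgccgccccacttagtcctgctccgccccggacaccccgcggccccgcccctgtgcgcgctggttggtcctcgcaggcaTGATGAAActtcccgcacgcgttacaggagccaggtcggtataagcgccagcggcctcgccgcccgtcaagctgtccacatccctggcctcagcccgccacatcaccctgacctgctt
XBP1, chr22:28800520-28800819, minus strand: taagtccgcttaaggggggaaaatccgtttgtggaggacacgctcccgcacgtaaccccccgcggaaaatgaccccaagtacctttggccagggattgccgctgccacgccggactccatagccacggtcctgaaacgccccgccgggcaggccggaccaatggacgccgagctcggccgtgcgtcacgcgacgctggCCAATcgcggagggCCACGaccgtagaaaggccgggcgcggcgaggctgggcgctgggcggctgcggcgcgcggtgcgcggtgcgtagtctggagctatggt
HSPA5, chr9:125241294-125241593, minus strand: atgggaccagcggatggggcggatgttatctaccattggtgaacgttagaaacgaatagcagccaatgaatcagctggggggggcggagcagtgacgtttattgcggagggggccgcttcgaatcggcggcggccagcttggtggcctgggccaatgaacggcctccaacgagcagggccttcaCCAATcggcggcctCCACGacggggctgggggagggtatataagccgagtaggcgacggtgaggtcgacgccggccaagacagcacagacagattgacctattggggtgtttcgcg
HERPUD1, chr16:56931892-56932191, plus strand: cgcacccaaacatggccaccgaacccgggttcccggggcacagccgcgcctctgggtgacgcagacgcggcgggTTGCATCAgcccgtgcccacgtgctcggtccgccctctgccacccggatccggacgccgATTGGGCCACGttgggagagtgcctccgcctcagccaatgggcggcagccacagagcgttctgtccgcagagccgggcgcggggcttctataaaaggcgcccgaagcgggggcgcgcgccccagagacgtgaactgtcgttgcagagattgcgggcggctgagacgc

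Synthesis enzymes made up 6 of the 12 called members. Of the 11, 6 fell, 0 rose and 5 were not called, beside 10.8% lower and 11.7% higher among all tested genes. Their median difference was -0.71, and 8 had an unadjusted limma p under 0.05, beside 6957 of all 18723 tested genes. PHGDH (ENSG00000092621.12, chromosome 1, 119711934 to 119744215 of GRCh38.p14), the enzyme that commits a glycolytic intermediate to serine, had 5551, 6474 and 4421 reads with GDF11 and 21225, 23279.9 and 11352 in controls. Its difference of -1.70 ± 0.28 was the largest decrease of the 46 tested genes (adjusted p = 0.00291), and the control mean was 3.40 times the GDF11 mean. All GDF11 values lay below the lowest control, replicate 3. Without that library the difference was -2.02, and with the RNA integrity covariate it was -0.90 and not called (adjusted p = 0.0624). PSAT1, the aminotransferase of the next step, fell to 10295, 11292 and 10977 reads with GDF11, against 19286, 16142 and 18082 in controls (-0.71 ± 0.15, adjusted p = 0.00971), and the call was lost at -0.67 when GDF11 replicate 1 was left out. PSPH, the phosphatase of the last step, was not called: 3989.6, 4265 and 3365 reads with GDF11 and 5077, 5071 and 4516 in controls, without overlap (-0.33 ± 0.15, adjusted p = 0.144). Without control replicate 3 PSPH was called lower.

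Both serine hydroxymethyltransferase genes fell. SHMT1 (ENSG00000176974.20, chromosome 17, 18327873 to 18363550), the cytosolic enzyme, had 1986, 1880.1 and 1908 reads with GDF11 and 3989, 4374 and 3458 in controls (-0.99 ± 0.15, adjusted p = 0.00172). SHMT2, the mitochondrial enzyme, had 11334, 12185 and 10023 reads with GDF11 and 23594, 28389 and 15575 in controls (-0.97 ± 0.23, adjusted p = 0.0161). Neither pair of groups overlapped, and the control mean was 2.05 times the GDF11 mean for SHMT1 and 2.01 times for SHMT2. SHMT1 was called lower under each of the 17 alternatives, with -0.77 under the RNA integrity covariate as the value nearest 0. The SHMT2 call was lost at -0.98 to -0.78 when GDF11 replicate 1, GDF11 replicate 3, control replicate 1 or control replicate 2 was left out, and at -0.36 with the RNA integrity covariate (adjusted p = 0.347).

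Of the MTHFD enzymes, which interconvert folate-bound one-carbon units, 1 of 3 fell, beside 10.8% of all tested genes. MTHFD1 (ENSG00000100714.17, chromosome 14, 64388353 to 64460025), the cytosolic trifunctional enzyme, had 5435, 4064 and 4998 reads with GDF11 and 9706, 10816 and 11212 in controls, a fall of 1.12 ± 0.16 (adjusted p = 0.00154). Here control replicate 3 was the highest control, and MTHFD1 too was called lower under each of the 17 alternatives. MTHFD2, the mitochondrial enzyme, had 5320.4, 6567 and 5872 reads with GDF11 and 9851, 8393 and 7307 in controls, without overlap, and missed the threshold (-0.51 ± 0.17, adjusted p = 0.0561); without control replicate 3 it was called at -0.62 (adjusted p = 0.00715). MTHFD1L, the mitochondrial formyl-tetrahydrofolate enzyme, was the only one of the 11 enzymes with a positive difference (0.094 ± 0.14, adjusted p = 0.662), and its groups overlapped.

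In proline synthesis ALDH18A1, which makes the first intermediate from glutamate, fell to 8571, 7739 and 7120.0 reads with GDF11, against 12003, 15155 and 12931 in controls (-0.77 ± 0.16, adjusted p = 0.0094). The call was lost at -0.70 when GDF11 replicate 3 was left out, and also at -0.55 with the RNA integrity covariate. PYCR1, the reductase of the last step, had 14105, 14765 and 12204 reads with GDF11 and 23794, 24401 and 13986 in controls and was not called (-0.56 ± 0.23, adjusted p = 0.113); control replicate 3 alone lay within the GDF11 range. Without it PYCR1 was called lower at -0.82 (adjusted p = 0.00127). ASNS, asparagine synthetase and a standard ATF4 target, whose core element stands in capitals in the promoter above, had 3530.0, 3788 and 3042 reads with GDF11 and 4044, 4194 and 3248 in controls. Its groups overlapped, and the 95% interval of its difference ran from -0.51 to 0.23. Rows of pseudogenes named after 11 of the members held at most 1.17% of the reads of gene and pseudogenes together, in the PDIA3 family, and at most 0.243% in the others, and reads can be divided among such copies.

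**Figure D3:**
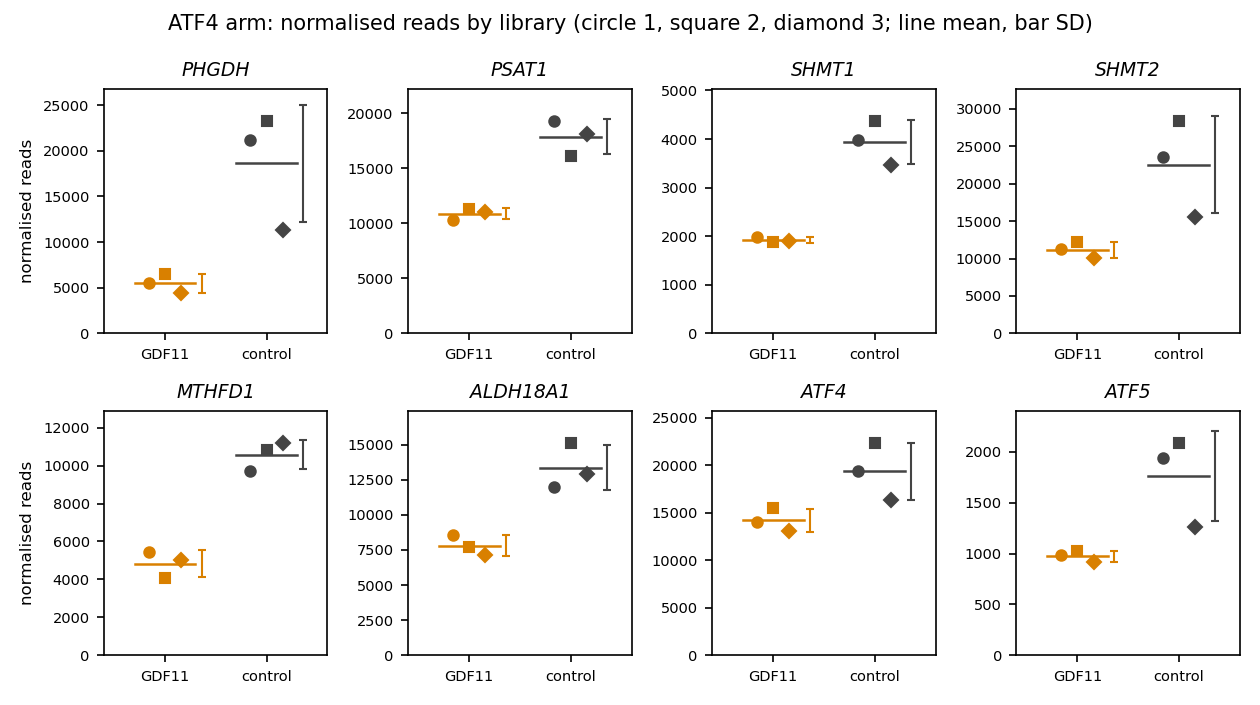
Normalised reads (linear axis from 0) of PHGDH, PSAT1, SHMT1, SHMT2, MTHFD1, ALDH18A1, ATF4 and ATF5 in each library, with the mean (line) and SD (bar) of each group of 3. No GDF11 value reaches a control value in any of the 8 genes, and control replicate 3 (diamond) is the lowest control for PHGDH, SHMT1, SHMT2, ATF4 and ATF5.

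Amino acid transporters did not pass the test: 0 of 4 were called by limma, beside 22.4% of all tested genes. At an unadjusted p under 0.05 there were 0, and all 4 had overlapping groups. SLC7A5 and SLC3A2 encode the light and heavy chains of the large neutral amino acid exchanger. SLC7A5 had 33510.1, 35762 and 29254 reads with GDF11 and 41026, 45929 and 32779.7 in controls (-0.27 ± 0.18, adjusted p = 0.312), and without control replicate 3 it was called lower at -0.41 (adjusted p = 0.0385). SLC3A2 had 12884, 13423 and 10197 reads with GDF11 and 14111, 13961 and 10187 in controls, with a 95% interval of -0.49 to 0.37. SLC1A5, the glutamine transporter gene, had 16336, 19369 and 14802 reads with GDF11 and 19019, 19683 and 12144 in controls (95% interval -0.48 to 0.51). SLC7A11, the cystine-glutamate exchanger gene, had 645, 648 and 1128 reads with GDF11 and 728, 466 and 898 in controls (95% interval -0.42 to 0.79). In both groups its replicate 3 was the highest.

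Of the 5 sensors and factors of the unfolded protein response, XBP1 and CREB3L3 fell and 3 were not called. Among all tested genes 10.8% were lower and 11.7% higher. XBP1 (ENSG00000100219.16, chromosome 22, 28794560 to 28800569), the substrate of IRE1 and a main activator of ER folding and degradation genes, had 7468, 7772 and 6758 reads with GDF11 and 13068, 14579 and 12389 in controls. The fall of 0.85 ± 0.15 (adjusted p = 0.00395) put the control mean at 1.82 times the GDF11 mean, and XBP1 was called lower under each of the 17 alternatives. The gene-level value sums spliced and unspliced XBP1 mRNA, and the split was not measured here. CREB3L3, a hepatocyte ER-bound factor gene, had 258, 201 and 275 reads with GDF11 and 371, 520.3 and 425 in controls (-0.67 ± 0.17, adjusted p = 0.022). The call was lost at -0.70 to -0.56 when GDF11 replicate 1, GDF11 replicate 2 or control replicate 2 was left out, and at -0.59 with the RNA integrity covariate (adjusted p = 0.207). It was also lost at -0.52 with the GC and length trend removed and control replicate 3 left out (adjusted p = 0.052).

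The genes of the 3 sensors themselves were not called. ATF6 had 3171, 3399.9 and 3502 reads with GDF11 and 2249, 2578 and 2543 in controls, without overlap and on the higher side, and missed the threshold (0.44 ± 0.14, adjusted p = 0.0517). It was called higher, for example, with a stricter filter on low values (0.44, adjusted p = 0.0443) and without control replicate 3 (0.46, adjusted p = 0.0155). ERN1, for IRE1, had 509.8, 494 and 583 reads with GDF11 and 351, 519.8 and 961 in controls, so control replicate 3 was above all other libraries. EIF2AK3, for PERK, had 969.8, 857 and 1167 reads with GDF11 and 718, 591 and 1379 in controls, again with control replicate 3 the highest of the 6. Neither was called (-0.086 ± 0.28 and 0.21 ± 0.27); without control replicate 3 EIF2AK3 was called higher at 0.54 (adjusted p = 0.0268) and ERN1 stood at 0.26, not called.

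None of the 14 ER chaperones and cofactors was called by limma, where 22.4% of all tested genes were called. Of the 14, 2 had an unadjusted p under 0.05 (CRELD2 and SDF2L1), beside 6957 of all 18723 tested genes. HSPA5, for BiP, the ER's main Hsp70 chaperone and the usual marker of ER stress, had 54513, 51058 and 55618 reads with GDF11 and 44086, 44428 and 61403 in controls. The highest and the lowest of the 6 were both controls, and the difference of 0.12 ± 0.18 (adjusted p = 0.668) had a 95% interval of -0.30 to 0.54. All GDF11 values lay above the other 2 controls, and without control replicate 3 the difference was 0.28, not called (adjusted p = 0.0844). HSP90B1, for the ER Hsp90 GRP94, had 42791, 39551 and 55296 reads with GDF11 and 39504, 33474 and 51083 in controls. In both groups replicate 3 was the highest, and the groups overlapped. Its difference was 0.16 ± 0.21, and 0.32 without control replicate 3, not called. The lectin chaperone genes CALR and CANX differed by 0.012 ± 0.16 and 0.091 ± 0.21, and HYOU1, an ER Hsp110, by -0.038 ± 0.14.

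No protein disulfide isomerase gene was called. PDIA3, the isomerase that works with calnexin and calreticulin, had 35446, 33190.4 and 34412 reads with GDF11 and 22928, 25086 and 31929 in controls, without overlap (0.38 ± 0.17, adjusted p = 0.146). Without control replicate 3, the control nearest to the GDF11 libraries, it was called higher at 0.52 (adjusted p = 0.00738). PDIA6 and PDIA4 differed by 0.16 ± 0.16 and -0.013 ± 0.17, with overlapping groups. Among the J-domain partners of BiP, DNAJC3 had 2952, 2787 and 4149 reads with GDF11 and 2363, 1805 and 2937 in controls (0.47 ± 0.22, adjusted p = 0.155), and was called higher at 0.63 without control replicate 3 (adjusted p = 0.0304). DNAJB11 and DNAJB9 differed by 0.25 ± 0.16 and 0.20 ± 0.18.

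Of the small luminal and secreted proteins known as sensitive markers of ER stress, none was called. SDF2L1 had 1754, 1779 and 1557 reads with GDF11 and 2969, 2999 and 1889 in controls, without overlap (-0.57 ± 0.20, adjusted p = 0.067). CRELD2 had 1879.8, 1741 and 1608 reads with GDF11 and 2508, 2651 and 2089 in controls, without overlap (-0.45 ± 0.15, adjusted p = 0.0652). Neither was called, and without control replicate 3 both were called lower, SDF2L1 at -0.79 (adjusted p = 0.00127) and CRELD2 at -0.54 (adjusted p = 0.00797). MANF, a secreted trophic factor of the same kind, differed by -0.065 ± 0.17 with overlapping groups.

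In ER-associated degradation 1 of 4 genes rose, beside 11.7% of all tested genes. EDEM1 (ENSG00000134109.11, chromosome 3, 5187707 to 5219958), a mannosidase-like protein that hands misfolded glycoproteins to degradation, had 2557, 2385 and 3012 reads with GDF11 and 1265, 978 and 1856 in controls. This was 1.94 times the control mean (0.95 ± 0.22, adjusted p = 0.0162), without overlap. The call was lost at 0.86 to 0.97 when GDF11 replicate 1, GDF11 replicate 3 or control replicate 1 was left out, and also at 0.33 with the RNA integrity covariate (adjusted p = 0.389). SEL1L, the adaptor of the HRD1 ubiquitin ligase, had 6779, 4931 and 6828 reads with GDF11 and 4183, 2806 and 5082 in controls; the groups overlapped and it was not called (0.63 ± 0.23, adjusted p = 0.0843). It was called higher at 0.82 without control replicate 3 (adjusted p = 0.0125). SYVN1, for HRD1 itself, lay on the other side of 0 with 2659, 2353 and 2135 reads with GDF11 and 2867, 3633 and 2395 in controls (-0.29 ± 0.18, adjusted p = 0.279), and without control replicate 3 it was called lower at -0.43 (adjusted p = 0.0477). HERPUD1, which organises the same ligase and whose promoter above holds both an ATF4 type and a short ER stress element, had 4788, 4875 and 4636 reads with GDF11 and 5188, 6076 and 5499.6 in controls, without overlap and not called (-0.22 ± 0.14, adjusted p = 0.277).

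**Figure D4:**
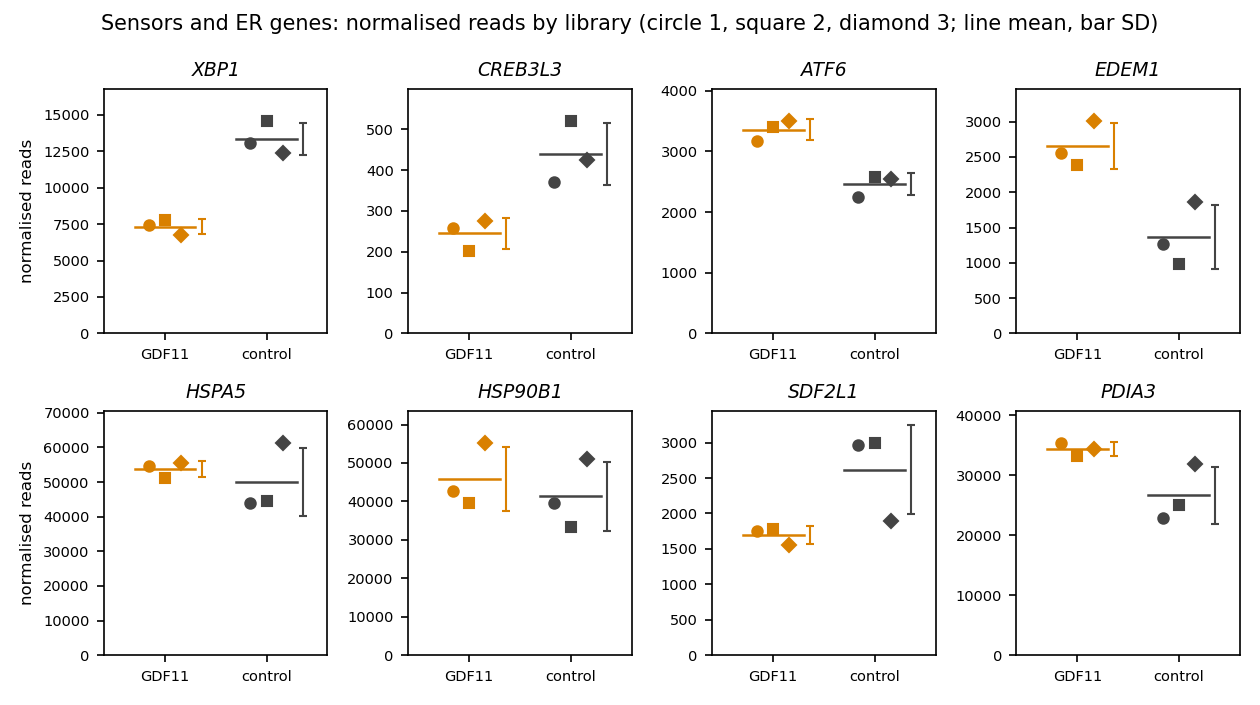
Normalised reads (linear axis from 0) of XBP1, CREB3L3, ATF6, EDEM1, HSPA5, HSP90B1, SDF2L1 and PDIA3 in each library, with the mean (line) and SD (bar) of each group of 3. XBP1 and CREB3L3 are lower and EDEM1 higher in every GDF11 library, whereas HSPA5 and HSP90B1 overlap, with control replicate 3 (diamond) high.

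Among other targets of ATF4 and the integrated stress response, 6 of 18 rose, 2 fell and 10 were not called, with a median difference of 0.27, where 11.7% of all tested genes were higher and 10.8% lower. DDIT4, an inhibitor of mTORC1, had 16618, 16797 and 15713 reads with GDF11 and 5757, 6173 and 5486 in controls (1.48 ± 0.14, adjusted p = 0.000166). NUPR1, a stress-induced chromatin protein gene, had 3722, 4197 and 3974 reads with GDF11 and 1647, 1406 and 1319 in controls (1.39 ± 0.15, adjusted p = 0.000301). JDP2, a repressor of the AP-1 and ATF family, rose by 1.25 ± 0.15 (adjusted p = 0.000557). For these 3 genes every control library, replicate 3 included, lay below every GDF11 library. VLDLR, a lipoprotein receptor, GDF15, a secreted stress hormone, and ALDH1L2, a mitochondrial folate enzyme, rose by 0.78, 0.66 and 0.41, and each call was lost when certain single libraries were left out, at 0.66 to 0.79 when GDF11 replicate 1, GDF11 replicate 3, control replicate 1 or control replicate 2 was left out for VLDLR, 0.58 to 0.66 when GDF11 replicate 1, GDF11 replicate 2 or control replicate 1 was left out for GDF15 and 0.31 to 0.45 when GDF11 replicate 1, GDF11 replicate 2, GDF11 replicate 3, control replicate 1 or control replicate 2 was left out for ALDH1L2. With the RNA integrity covariate VLDLR stood at 0.49 (adjusted p = 0.279) and ALDH1L2 at 0.16 (adjusted p = 0.647), neither called. ALDH1L2, with few reads, also lost its call with no filter, quantile normalization, median scaling, the log2 scale of reads plus 1 and the GC and length trend removed (adjusted p = 0.083, 0.0962, 0.0737, 0.0563 and 0.0833). The glycine transporter gene SLC6A9 fell by 1.13 ± 0.22 (adjusted p = 0.00665), which was no longer called at -0.69 with the RNA integrity covariate, and CBS, of the transsulfuration pathway, by 0.57 ± 0.17 (adjusted p = 0.0419). The call of CBS ended at -0.64 to -0.43 when GDF11 replicate 1, GDF11 replicate 2, GDF11 replicate 3, control replicate 1 or control replicate 2 was left out, also when no filter on low values was used (adjusted p = 0.0659), and at -0.26 (adjusted p = 0.503) with the RNA integrity covariate. Genes of this list are also induced by other pathways.

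Of other folate and glycine genes, 9 of 21 tested fell, 1 rose and 11 were not called, with a median difference of -0.30, beside the same 10.8% lower and 11.7% higher. ALDH1L1, a folate dehydrogenase gene of hepatocytes, had 698, 633 and 539 reads with GDF11 and 4450.5, 3792 and 2901 in controls (-2.40 ± 0.19, adjusted p = 5.95e-05), so the control mean was 5.96 times the GDF11 mean. GNMT, glycine N-methyltransferase, had 85.5, 115 and 85.3 reads with GDF11 and 566, 612 and 363 in controls (-1.76 ± 0.19, adjusted p = 0.00037). The reduced folate carrier gene SLC19A1 fell by 1.46 ± 0.21 (adjusted p = 0.00163). Among the others that fell were FTCD, AHCY, AMT, TYMS and GCSH, by 1.27, 1.24, 0.96, 0.85 and 0.65; the AHCY call was lost at -1.13 to -1.02 when GDF11 replicate 3, control replicate 1 or control replicate 2 was left out, and the GCSH call at -0.70 to -0.55 when GDF11 replicate 1, GDF11 replicate 2 or control replicate 1 was left out. With the RNA integrity covariate AHCY stood at -0.42 (adjusted p = 0.375) and AMT at -0.52 (adjusted p = 0.103), neither called. The gene that rose was BHMT, betaine-homocysteine methyltransferase (0.66 ± 0.16, adjusted p = 0.0184), and the call was lost at 0.58 to 0.64 when GDF11 replicate 1, GDF11 replicate 3, control replicate 1 or control replicate 2 was left out, and at 0.49 (adjusted p = 0.223) with the RNA integrity covariate. SDS was near the floor and not tested.

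Beyond the listed ER genes, 2 of 20 other folding and oxidation genes rose and 0 fell by limma, with a median difference of 0.21. At an unadjusted p under 0.05 there were 4 of the 20, beside 6957 of all 18723 tested genes. KDELR3, a retrieval receptor for ER-resident proteins, rose by 0.69 ± 0.17 (adjusted p = 0.0199), no longer called at 0.65 to 0.67 when GDF11 replicate 1 or GDF11 replicate 2 was left out. DNAJC1, an ER membrane J protein gene, rose by 0.60 ± 0.15 (adjusted p = 0.0224), no longer called at 0.52 to 0.63 when GDF11 replicate 1, GDF11 replicate 2, GDF11 replicate 3, control replicate 1 or control replicate 2 was left out. Of 12 other ER-associated degradation genes tested, EDEM3, a relative of EDEM1, rose by 0.70 ± 0.21 (adjusted p = 0.0416) and 11 were not called. The EDEM3 call was lost at 0.52 to 0.75 when GDF11 replicate 1, GDF11 replicate 2, GDF11 replicate 3, control replicate 1 or control replicate 2 was left out, and without the filter on low values (adjusted p = 0.0505). With the RNA integrity covariate EDEM3 stood at 0.20 (adjusted p = 0.672) and DNAJC1 at 0.36 (adjusted p = 0.286), neither called. The shares called in these ER lists lie below the 22.4% of all tested genes called in either direction.

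**Figure D5:**
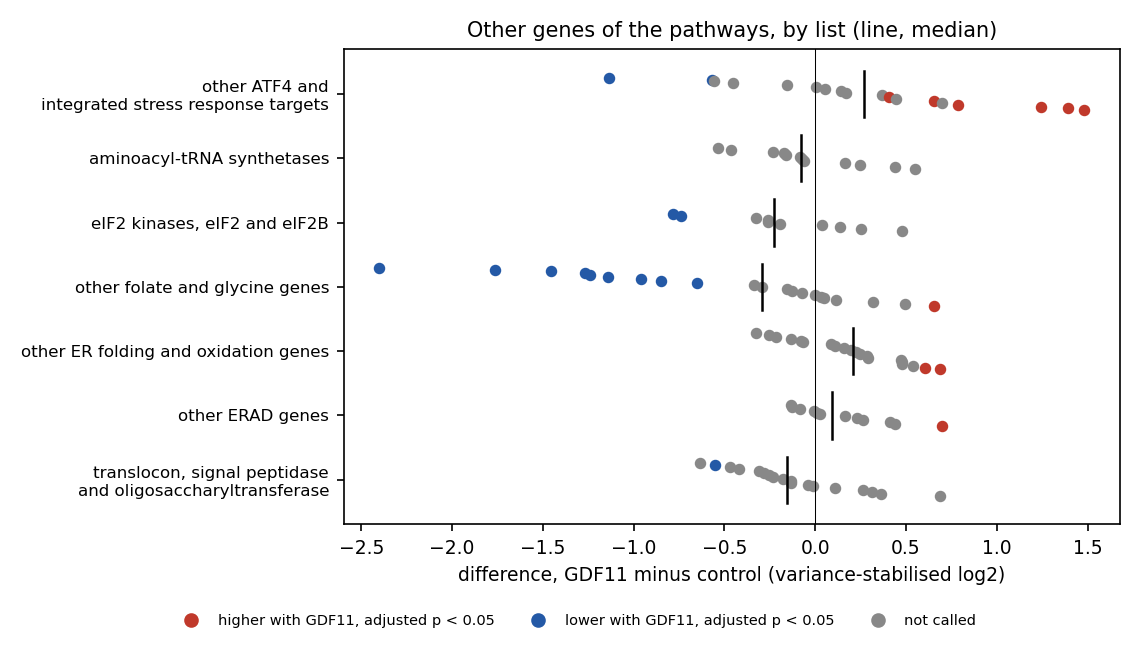
Difference of each tested gene of 7 related lists, GDF11 minus control on the variance-stabilised log2 scale, with the median of each list (line); red and blue mark genes called higher and lower at an adjusted p under 0.05. Folate and glycine genes reach -2.40, other ATF4 targets reach 1.48, the ER folding and degradation lists hold 3 called genes, all higher, and the translocon list holds 1, lower.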

How the data were processed

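RNA of 6 HepG2 cultures was sequenced (75-base reads, from 250 ng RNA, per the labels' protocols). The authors deposited 1 table of variance-stabilised log2 values per gene. The submitters' processing notes name Trimmomatic, Salmon 1.2.1, DESeq2 and GRCh38, and the labels' protocol names STAR 2.6 and hg19; which of them made it is not stated there. Symbols were found for 58349 of 60240 gene IDs (96.9%).

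The lowest value, 5.52, is that of a gene without reads, so the curve could be inverted to normalised reads. Low values gave whole reads (within 0.01, up to 20 reads) for 71.0% to 74.2%, too few to recover counts, and no count test was run. Depth was estimated from the same steps. Differences were fitted with limma 3.58.1 (R 4.3.3; trended variance, two-sided, Benjamini-Hochberg) on genes averaging at least 0.5 above the lowest value. The scripts were tested on simulated data. Promoters were read with Python 3.11.15.

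Members, roles and related lists were chosen with earlier results of these data known. Values in every library are given for ATF4, DDIT3, PHGDH, XBP1, HSPA5 and the up to 4 members of each role with the lowest p, and for some others; of related lists, up to 3 called genes with the largest difference were named, and other called genes of the ATF4 target and folate lists after their values were seen; 1 gene of the folate list is not reported here. Alternatives covered filters, scaling, variance prior, library weights, RNA integrity, replicate number, scale, GC and length, and each library left out; GC and length without control replicate 3 was chosen after seeing the data.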

Additional observations from a re-analysis of the deposited data

How the results depend on the processing

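Of the 12 called genes, MTHFD1, SHMT1 and XBP1 were called under all 17 alternatives; the others lost the call under 1 to 6. The genes called higher with GDF11 and genes called lower with GDF11 numbered 4473 and 4554 with library weights, 1149 and 721 with the RNA integrity covariate, and 3685 and 4450 with the GC and length trend removed and control replicate 3 left out. Leaving out 1 library gave 1397 to 3647 higher and 955 to 3993 lower, both highest without control replicate 3. In the ATF4 arm 1 gene was higher with the stricter filter, under which CHAC1 was not tested, 12 lower with library weights, 0 higher and 3 lower with the RNA integrity covariate (median -0.069), and 14 lower with GC, length and control replicate 3 removed; leaving out 1 library gave 0 to 2 higher and 4 to 13 lower. In the ER arm 4 were higher and 2 lower with library weights, 0 higher with the RNA integrity covariate (ER arm median difference -0.041), 2 higher and 2 lower with GC and length removed (median -0.012), and 3 higher and 2 lower with control replicate 3 left out as well. Quantile normalization gave an ER median of 0.37; leaving out 1 library gave 0 to 4 higher, 0 to 3 lower and medians of 0.030 to 0.20.

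Same-numbered libraries correlated at -0.088, 0.375 and 0.478, and GDF11 replicate 1 correlated best with control replicate 2, at 0.147. Deviations within groups of 3 libraries cannot settle whether the numbers pair the samples. With a replicate block the genes called lower with GDF11 numbered 3306, against 2017 in the main fit. The ATF4 arm then had 11 lower, and the ER arm 3 higher and 2 lower.

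Members that were not called changed sign as follows; the cause was not tested. With quantile normalization these were MANF at 0.075, HYOU1 at 0.12, PDIA4 at 0.15 and SLC3A2 at 0.089; with median scaling SLC1A5 at -0.044 and CALR at -0.046; with library weights SLC1A5 at -0.14, DNAJB9 at -0.016, HYOU1 at 0.0057, PDIA4 at 0.12 and ERN1 at 0.30. With the RNA integrity covariate they were HSPA5 at -0.20, ASNS at 0.17, DNAJB11 at -0.074, TRIB3 at 0.13, DNAJC3 at -0.13, SLC7A5 at 0.11, CANX at -0.38, SESN2 at 0.32, MANF at 0.23, SLC7A11 at -0.59, SYVN1 at 0.18, HSP90B1 at -0.37, SLC3A2 at 0.37, EIF2AK3 at -0.59 and PYCR1 at 0.055. With the GC and length trend removed they were HSPA5 at -0.077, CANX at -0.11 and SLC7A11 at -0.026, and without control replicate 3 as well HSPA5 at -0.021, SLC1A5 at -0.13, CANX at -0.079, PDIA4 at 0.023 and ERN1 at 0.10. Leaving out 1 library gave CALR -0.046 to 0.075, CANX -0.043 to 0.24, EIF2AK3 -0.012 to 0.54, ERN1 -0.38 to 0.26, MANF -0.20 to 0.0059, PDIA4 -0.089 to 0.13, SESN2 -0.24 to 0.026, SLC1A5 -0.21 to 0.14, SLC3A2 -0.21 to 0.060 and SLC7A11 -0.057 to 0.37.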

Other observations

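Aminoacyl-tRNA synthetases, which load amino acids onto tRNA and include known ATF4 targets, were not called by limma in 12 of 12 genes (median difference -0.077, 3 at an unadjusted p under 0.05). Among all 18723 tested genes 22.4% were called and 6957 had an unadjusted p under 0.05. Of 10 genes for eIF2 kinases, eIF2 and its exchange factor eIF2B, 2 fell and 8 were not called, a share close to the 22.4% of all tested genes called in either direction. EIF2AK4, the amino acid sensing kinase GCN2, had 2821, 3063 and 3168 normalised reads in GDF11 libraries and 5818, 4481 and 5032 in control libraries (-0.74 ± 0.15, adjusted p = 0.0094, limma), and the call was lost at -0.69 when GDF11 replicate 1 was left out. EIF2B3, an eIF2B subunit gene, had 666, 989 and 726 with GDF11 and 1702, 1500.5 and 1090.1 in controls (-0.78 ± 0.21, adjusted p = 0.027), and the call was lost at -0.74 to -0.65 when GDF11 replicate 1, GDF11 replicate 3, control replicate 1 or control replicate 2 was left out, and at -0.51 (adjusted p = 0.346) with the RNA integrity covariate.

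Of 18 translocon, signal peptidase and oligosaccharyltransferase genes, which bring secretory proteins into the ER, SPCS1 fell and 17 were not called, a smaller share than among all tested genes. Uncalled genes of this and the other related lists were not examined without control replicate 3. SPCS1 had 3879.6, 3979 and 3478 normalised reads with GDF11 and 5617, 6328 and 4863 in controls (-0.55 ± 0.15, adjusted p = 0.0334), and the call was lost at -0.59 to -0.46 when GDF11 replicate 1, GDF11 replicate 2, GDF11 replicate 3, control replicate 1 or control replicate 2 was left out, also when no filter on low values was used (adjusted p = 0.0589), and at -0.26 (adjusted p = 0.389) with the RNA integrity covariate.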
